A study of Homo sapiens with 48 samples.

Results

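The hnRNP A/B and D group consists of 7 genes for RNA-binding proteins, HNRNPA0, HNRNPA1, HNRNPA2B1, HNRNPA3, HNRNPAB, HNRNPD and HNRNPDL. They were chosen by gene symbol, and all 7 are among the 11145 genes with ribosome-protected fragments (RPFs), among the 11947 genes with total RNA values and among the 10836 genes with both. The study had already singled out HNRNP genes from these libraries, for lower translation after induction of shEIF2B1 in particular. Responses of the members are therefore given as a description, without p-values, and they are not independent evidence of a direction.

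Heterogeneous nuclear ribonucleoproteins coat nascent transcripts and take part in splicing, export, transport, stability and translation of mRNAs. Members of this group carry a pair of RNA recognition motifs followed by a glycine-rich tail. HNRNPA1, HNRNPA2B1 and HNRNPA3 are abundant nuclear proteins that shuttle to the cytoplasm and influence the choice of splice sites, and HNRNPA0 is a relative known for binding AU-rich elements. HNRNPD, also called AUF1, binds AU-rich elements of short-lived mRNAs, HNRNPDL is its paralogue, and HNRNPAB has been linked to mRNA transport. Cells keep the amounts of several of these proteins in check through their own splicing and decay.

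Cells were SW480, a human APC-mutant colorectal cancer (CRC) line, transduced with a DOX-inducible non-targeting shRNA (shCTRL) or an inducible shRNA against EIF2B1 (shEIF2B1) or EIF2B4 (shEIF2B4), which encode the eIF2Bα and eIF2Bδ subunits of eIF2B, the exchange factor that recharges the initiation factor eIF2. Each line was a pool of selected cells rather than a clone, and it was kept with DMSO (-DOX) or with DOX at 1 µg/ml (+DOX) for 5 days. These were separate cultures and not a time course. Before and after induction or DOX stand for the -DOX and the +DOX cultures. Every condition was run 4 times in separate weeks, named week 1 to week 4 after the replicate number, and both RPFs and total cytoplasmic RNA were sequenced from each of the 24 lysates. All values are the authors' regularized log2 values, so the read depth behind a value is unknown and changes of weakly covered genes are understated.

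A response is the change from -DOX to +DOX in a knockdown line minus the same change in shCTRL, fitted across all genes with limma and with the week as a block. Both knockdowns share the shCTRL libraries. Calls were made at 0.1 after Benjamini-Hochberg adjustment over the whole table, the threshold used in the study. Translational efficiency (TE) was taken within a lysate, by subtracting the log2 value of its total RNA from that of its RPFs. The scales of RPFs and total RNA were set separately, so TE was compared between conditions and not between genes. Because these are bulk lysates, fewer cells that express a gene and less RNA per cell cannot be told apart.

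In the GRCh38 assembly (GENCODE v29 annotation) the members lie on 5 chromosomes. HNRNPA0 (chr5:137745651-137754376, minus strand) is an intronless gene with 1 exon. HNRNPA1 is at chr12:54280193-54287088 on the plus strand, HNRNPA2B1 at chr7:26173057-26201529 on the minus strand and HNRNPA3 at chr2:177212563-177223958 on the plus strand. HNRNPAB is at chr5:178204507-178211163 on the plus strand. HNRNPD (chr4:82352498-82374503) and HNRNPDL (chr4:82422564-82430408) lie close to each other on the minus strand of chromosome 4. RPFs were counted on the coding sequence (CDS) of 1 transcript per gene, whose CDS had 915 bases for HNRNPA0, 783 for HNRNPA2B1, 996 for HNRNPAB, 918 for HNRNPD and 903 for HNRNPDL. The transcripts used for HNRNPA1 and HNRNPA3 have no entry in this annotation, and the principal transcripts of those genes, with CDSs of 960 and 1134 bases, stood in for them wherever sequence was needed.

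Base composition separated the members. GC3, the share of codons that end in G or C, was 76.1% in HNRNPA0 and 65.1% in HNRNPAB, against a median of 59.1% over 11889 genes with a CDS. It was 50.3% in HNRNPD, 40.6% in HNRNPA1, 39.5% in HNRNPA2B1, 34.6% in HNRNPDL and 28.6% in HNRNPA3, whose GC3 was lower than that of all but 0.715% of genes. Stretches of 60 bases of the CDS of 6 members, chosen for a GC3 nearest to that of the whole CDS, show this difference, with G or C at the third codon position in capitals (GENCODE v29, 5′ to 3′, reading frame starting at the first base).
HNRNPA0: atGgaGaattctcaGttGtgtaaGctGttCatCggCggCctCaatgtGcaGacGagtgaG
HNRNPAB: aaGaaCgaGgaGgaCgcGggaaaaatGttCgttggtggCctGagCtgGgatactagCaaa
HNRNPD: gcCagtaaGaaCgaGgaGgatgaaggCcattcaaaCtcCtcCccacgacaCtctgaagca
HNRNPA2B1: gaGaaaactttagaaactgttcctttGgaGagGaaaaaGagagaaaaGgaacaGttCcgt
HNRNPDL: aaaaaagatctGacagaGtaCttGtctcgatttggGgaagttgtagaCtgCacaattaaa
HNRNPA3: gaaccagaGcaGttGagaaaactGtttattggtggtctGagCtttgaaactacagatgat
Of the 20 codons shown, 15 end in G or C in HNRNPA0, 13 in HNRNPAB, 10 in HNRNPD, 8 in HNRNPA2B1, 7 in HNRNPDL and 6 in HNRNPA3. The members were more alike in their purine content. G and A made up between 59.0% and 63.5% of the CDS in 6 members, which placed them above at least 93.9% of genes, and 55.3% in HNRNPA0, above 76.8% of genes, with a median of 52.6% over all genes.

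The knocked-down genes were checked first. Total RNA of EIF2B1 in shEIF2B1 cells was 8.19, 8.21, 8.25 and 8.38 in the -DOX libraries of weeks 1 to 4 and 7.68, 7.49, 7.10 and 7.24 in the +DOX libraries, a response of -0.67 ± 0.15 (SE). Total RNA of EIF2B4 in shEIF2B4 cells was 6.88, 7.20, 7.42 and 7.24 before and 6.64, 6.68, 6.47 and 6.66 after induction, a response of -0.49 ± 0.14. Each target was also lower before induction than in uninduced shCTRL cells in 4 of 4 weeks, by 0.29 ± 0.06 and 0.25 ± 0.07 on the log2 scale of total RNA. Of 8 epithelial markers listed, 6 were measured in total RNA, among them KRT8, KRT18, EPCAM and CDX2, and no immune, fibroblast or endothelial marker of those listed had a total RNA value. In RPFs the same 6 were measured, and of the other markers only CD14, an immune marker, with a mean of 4.54. Column medians of the RPF libraries lay between 6.84 and 6.97 in shEIF2B4 cells and between 6.98 and 7.12 in the other lines.

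RPFs of the members differed in level and between weeks. Per kilobase of CDS, RPFs in uninduced shCTRL cells were highest for HNRNPA2B1 (11.77 ± 0.71, SD, n = 4), followed by HNRNPAB (11.16 ± 0.24), HNRNPA0 (10.60 ± 0.16), HNRNPD (10.29 ± 0.42) and HNRNPDL (9.10 ± 0.61). Neighbours in this order lay within 1 SD of each other in their means for HNRNPA2B1 and HNRNPAB and for HNRNPA0 and HNRNPD, whereas HNRNPDL was separate from the rest. HNRNPA1 and HNRNPA3 were left out of the order, since the lengths of their transcripts were not known. Averaged over the 6 conditions, RPFs of HNRNPA2B1 ranged from 10.63 in week 1 to 12.20 in week 4, a span of 1.57, and those of HNRNPDL spanned 1.27 and those of HNRNPA3 1.12. All members but HNRNPA0 were lowest in week 1 and highest in week 4. HNRNPA0 went the other way, from 10.49 in week 1 to 9.93 in week 4. Total RNA of the members varied between weeks by 0.12 to 0.31 only.

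**Figure D1:**
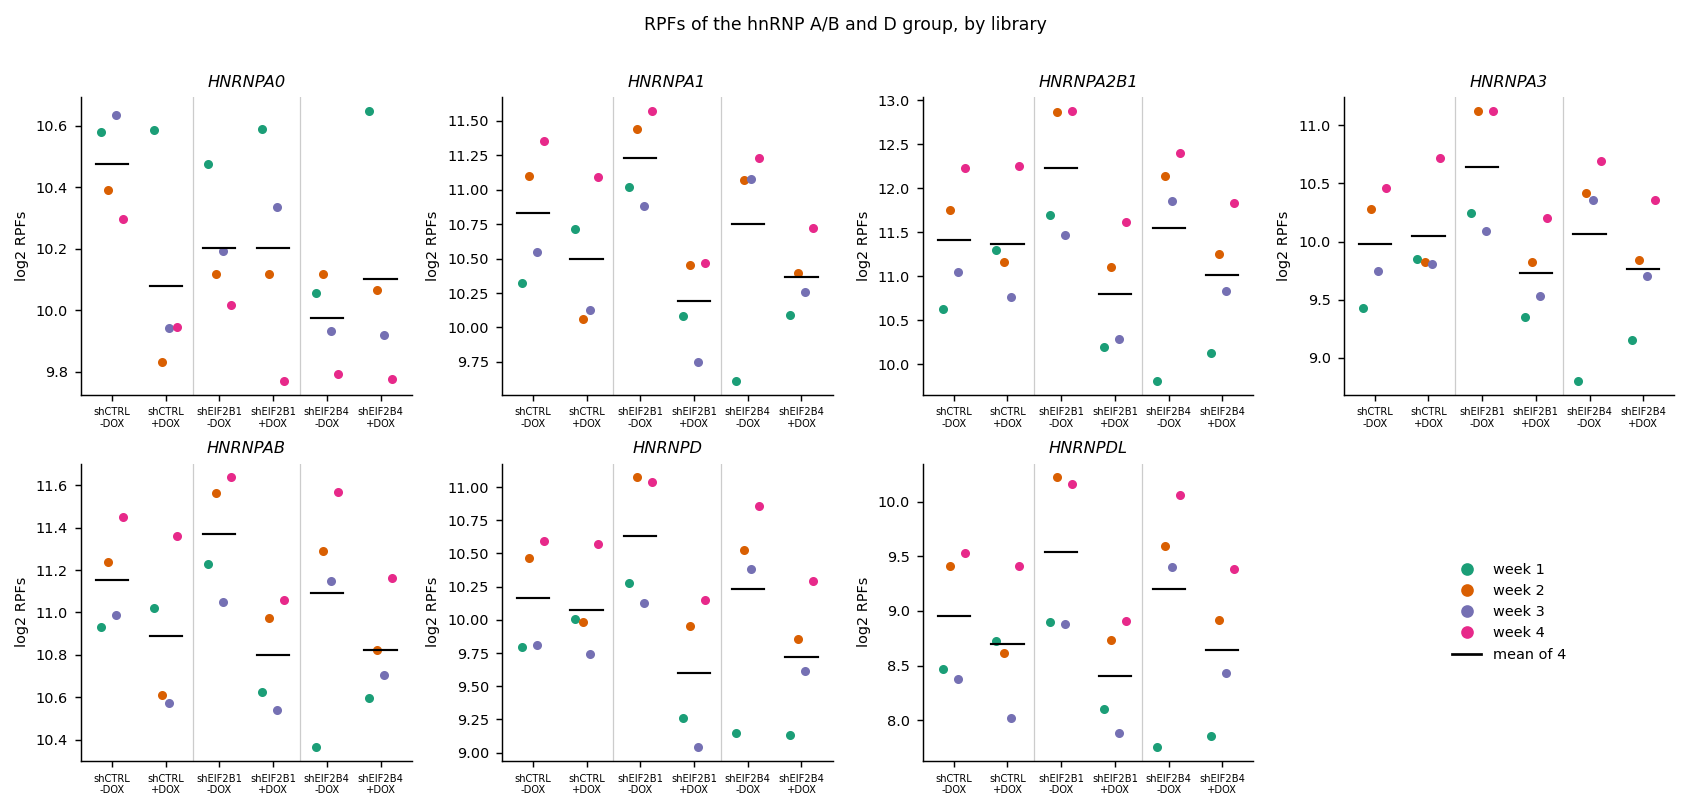
Log2 RPFs of each member (vertical axis, scaled for each gene) in the 6 conditions, with 1 point per library coloured by week and the mean of 4 as a bar. Within each week, the shEIF2B1 points of HNRNPA2B1, HNRNPA3, HNRNPD and HNRNPDL sit lower in +DOX than in -DOX, and the week 1 point of uninduced shEIF2B4 cells lies below the other weeks for all members but HNRNPA0.

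After induction of shEIF2B1, RPFs of 5 members were called lower, those of HNRNPA0 were called higher and those of HNRNPAB were not called. Over all genes, 15.3% were called lower and 12% higher in this comparison. HNRNP genes, HNRNPD and HNRNPA3 by name, had already been singled out by the study for lower values after shEIF2B1. The median response of the 7 members was -0.88, against -0.01 over all genes. HNRNPA2B1 had the largest difference, followed by HNRNPA3, HNRNPD and HNRNPDL, each of which was lower against shCTRL in 4 of 4 weeks. The count depended on the pairing of libraries within weeks: without the week as a block no member was called, beside 0.0179% of genes lower and 0.431% higher.

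RPFs of HNRNPA2B1 in shEIF2B1 cells were 11.69, 12.86, 11.47 and 12.88 without DOX and 10.20, 11.10, 10.29 and 11.61 with DOX in weeks 1 to 4. In shCTRL cells they were 10.63, 11.75, 11.05 and 12.23 without and 11.30, 11.17, 10.76 and 12.25 with DOX. Every shEIF2B1 library was thus lower after induction within its week, by more than any change in shCTRL cells, although the groups overlap when weeks are ignored. The response was -1.38 ± 0.22 (SE), a fold of 0.385, and only 0.0179% of genes had a lower value. Weekly responses were -2.15, -1.17, -0.89 and -1.29, with the widest gap in week 1, in which RPFs of shCTRL cells were higher after DOX.

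HNRNPA3 had RPFs of 10.24, 11.12, 10.09 and 11.12 in uninduced and 9.35, 9.82, 9.53 and 10.20 in induced shEIF2B1 cells. In shCTRL cells the values were 9.43, 10.28, 9.75 and 10.46 before and 9.85, 9.82, 9.81 and 10.71 after DOX. The response was -0.99 ± 0.18, between -0.62 and -1.31 in the single weeks.

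HNRNPD, the AU-rich element binding protein, had RPFs of 10.28, 11.08, 10.13 and 11.04 before and 9.26, 9.95, 9.04 and 10.15 after induction of shEIF2B1. Its shCTRL values were 9.79, 10.47, 9.81 and 10.59 before and 10.00, 9.98, 9.74 and 10.58 after DOX. With a response of -0.94 ± 0.15, HNRNPD was lower in each week by 0.64 to 1.23 on the log2 scale relative to shCTRL. Its paralogue HNRNPDL had a response of -0.88 ± 0.20, from RPFs of 8.90, 10.22, 8.88 and 10.16 before and 8.10, 8.73, 7.89 and 8.90 after induction. Both genes therefore showed a similar fold, 0.521 for HNRNPD and 0.544 for HNRNPDL, with overlapping standard errors.

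HNRNPA1 had RPFs of 11.02, 11.44, 10.88 and 11.57 before and 10.09, 10.45, 9.75 and 10.47 after induction of shEIF2B1, lower in 4 of 4 weeks. RPFs of shCTRL cells were also lower after DOX in 3 of 4 weeks, and relative to shCTRL the response was -0.71 ± 0.21, below 0 in 3 of 4 weeks and 0.05 in week 2. These counts are uncertain because many footprints of HNRNPA1 cannot be placed on this gene alone. Of the 30-base windows of its CDS, 60.2% occur without mismatch in HNRNPA1L2, an intronless copy on chromosome 13. Among the transcripts used for RPFs that are in this annotation, the share found in any other gene is also 60.2%. Over all coding transcripts of the annotation it is 95.6%, with 81.7% of windows found in HNRNPA1P48. None of the windows of the other 6 members occurs in another gene in either set. Over 960 bases the CDSs of HNRNPA1 and HNRNPA1L2 differ at 15 positions, are 98.4% identical and share an identical run of 174 bases. In total RNA of uninduced shCTRL cells HNRNPA1 ranged from 12.56 to 12.85 and HNRNPA1L2 from 5.59 to 5.84, but in RPFs of the same cells HNRNPA1L2 was the higher, at 11.69 to 12.56 against 10.32 to 11.35. RPFs of HNRNPA1L2 were 12.27, 12.85, 12.18 and 12.73 before and 11.58, 11.60, 11.26 and 11.62 after induction of shEIF2B1, with a response of -0.55 ± 0.22. RPF and TE values under the name HNRNPA1 are thus those of an undetermined part of its footprints.

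HNRNPAB and HNRNPA0, the members with the highest GC3, differed from the rest. RPFs of HNRNPAB were 11.23, 11.56, 11.05 and 11.64 before and 10.63, 10.97, 10.54 and 11.06 after induction of shEIF2B1. They were lower in each week, but so were those of shCTRL cells in 3 of 4 weeks, and the response of -0.31 ± 0.15 was not called. RPFs of HNRNPA0 were 10.48, 10.12, 10.19 and 10.02 before and 10.59, 10.12, 10.34 and 9.77 after induction of shEIF2B1, which left their mean at 10.20 in both conditions. In shCTRL cells they were 10.58, 10.39, 10.64 and 10.30 before and 10.59, 9.83, 9.94 and 9.95 after DOX. The response of 0.40 ± 0.15 for HNRNPA0 therefore rested on its lower values in induced shCTRL cells: without the correction for shCTRL it was 0.0019. The call was also lost without week 2 or week 3 and with all 24 libraries in 1 fit. In these fits 11.1%, 7.78% and 7.31% of all genes were called higher.

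In total RNA, 2 members were called lower after shEIF2B1 and none higher, beside 1.13% of genes called lower and 2.34% called higher. Total RNA of HNRNPA2B1 was 11.90, 12.15, 11.92 and 12.11 before and 11.26, 11.08, 11.11 and 11.34 after induction, so that the groups did not overlap. In shCTRL cells it was 11.77, 11.88, 11.76 and 12.05 before and 11.88, 11.39, 11.40 and 11.98 after DOX, and the response was -0.62 ± 0.14, lower in 4 of 4 weeks. HNRNPA3 had total RNA of 10.95, 11.03, 10.78 and 11.03 before and 10.46, 10.20, 10.40 and 10.53 after induction, again without overlap, with a response of -0.50 ± 0.12. Neither was called when week 1 or week 4 was left out, at responses of the same direction. In each of these fits 0.117% of all genes were called lower.

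HNRNPDL was lower in total RNA in 4 of 4 weeks, with a response of -0.35 ± 0.15 that was not called. HNRNPD, with -0.20 ± 0.16, was lower in 3 of 4 weeks, and its total RNA in shCTRL cells was itself lower after DOX. Total RNA of HNRNPA1 lay between 12.41 and 12.91 in all 24 libraries, and its response was -0.05 ± 0.11. HNRNPA0 (0.02 ± 0.10) and HNRNPAB (-0.08 ± 0.14) were likewise within their standard error of 0. Without the correction for shCTRL, 5 members were called lower in total RNA, in a fit that called 16.8% of genes lower and 17.5% higher.

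**Figure D2:**
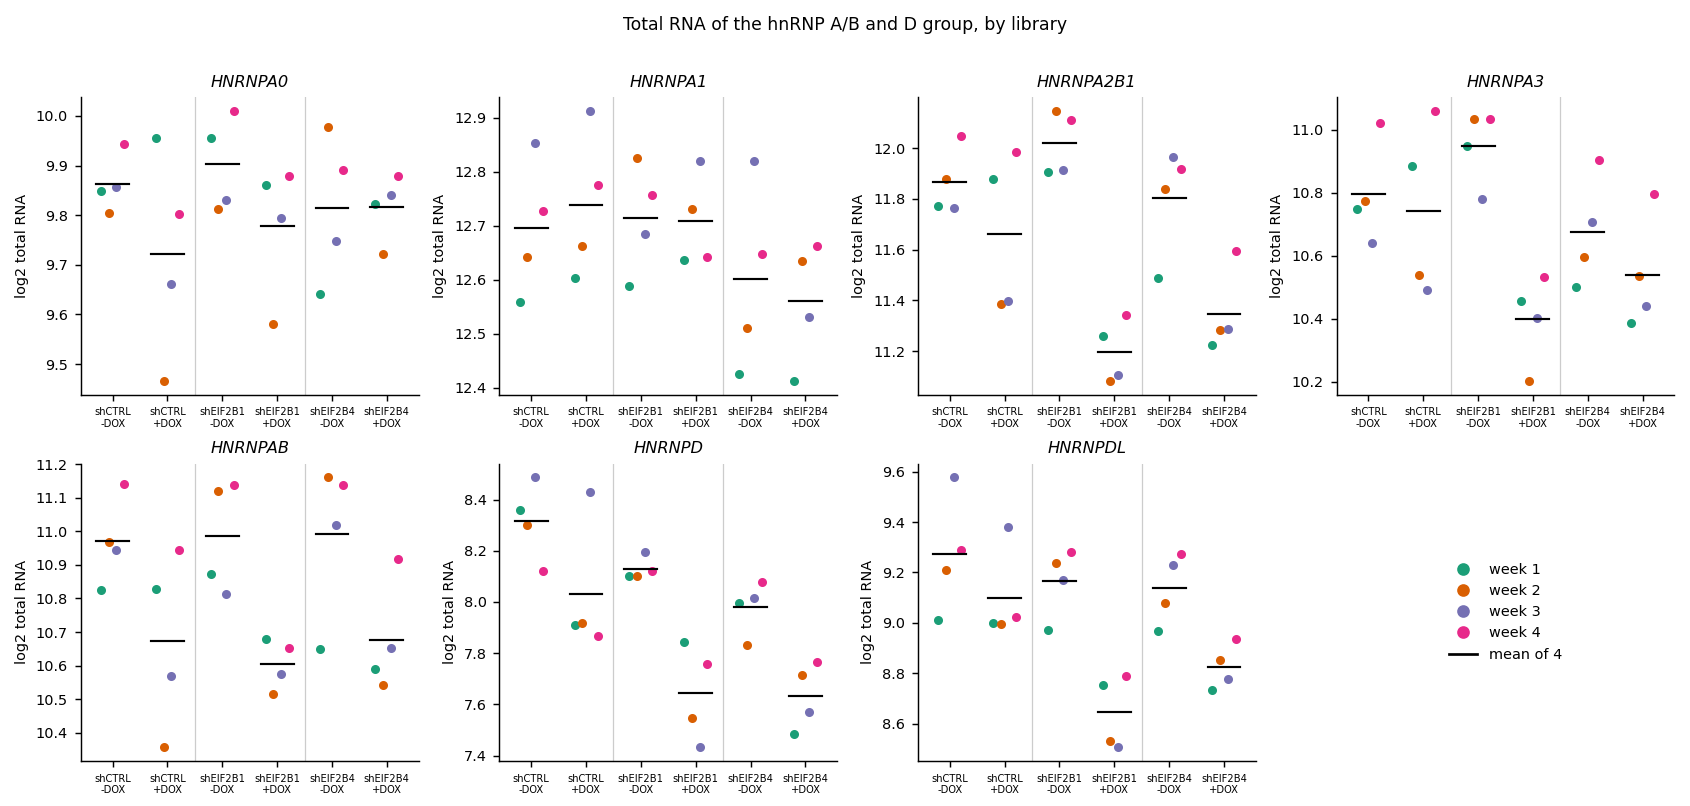
Log2 total RNA of each member (vertical axis, scaled for each gene) in the 6 conditions, with 1 point per library coloured by week and the mean of 4 as a bar. In shEIF2B1 cells all +DOX points of HNRNPA2B1 and HNRNPA3 lie below all -DOX points, while those of HNRNPA1 stay between 12.41 and 12.91 in all libraries.

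TE relates the RPFs to the RNA of the same lysate. After shEIF2B1, 4 members were called lower in TE (HNRNPA1, HNRNPA2B1, HNRNPA3 and HNRNPD) and none higher, beside 4.13% and 2.97% of all genes. The median over the members was -0.53, against -0.02 over all genes. TE of HNRNPA2B1 had a response of -0.76 ± 0.17 and that of HNRNPD of -0.74 ± 0.19, each lower in 4 of 4 weeks. On the log2 scale, the response of HNRNPA2B1 in TE was close to that in its total RNA (-0.62 ± 0.14), while for HNRNPD the response in total RNA was the smaller (-0.20 ± 0.16). HNRNPA3 had -0.49 ± 0.16 and HNRNPDL -0.53 ± 0.21, the latter not called. HNRNPA1 had -0.66 ± 0.22, subject to the shared footprints. HNRNPA0, at 0.38 ± 0.14, was not called. Week 1 held the largest weekly TE responses, -1.40 for HNRNPA2B1 and -1.42 for HNRNPD. With week 1 or week 4 left out no member was called in TE, beside 0% and 0.0554% of all genes called lower. With week 3 left out 1 member was, beside 0.203% of genes called lower.

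After shEIF2B4 no member was called in RPFs, beside 0.87% of genes called lower and 1.88% called higher. RPFs of HNRNPA2B1 in shEIF2B4 cells were 9.81, 12.14, 11.85 and 12.40 before and 10.12, 11.25, 10.84 and 11.84 after induction. They were lower in weeks 2 to 4 and higher in week 1, in which the uninduced library stood far below the other weeks. The response was -0.49 ± 0.37. The same uninduced library of week 1 was the lowest of its group for 6 members, with HNRNPA1 at 9.61 against 11.07 to 11.23, HNRNPD at 9.15 against 10.38 to 10.86 and HNRNPDL at 7.75 against 9.40 to 10.06.

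Responses to shEIF2B4 in RPFs were -0.42 ± 0.24 for HNRNPD, -0.38 ± 0.26 for HNRNPA3, -0.30 ± 0.34 for HNRNPDL, -0.05 ± 0.32 for HNRNPA1 and -0.01 ± 0.22 for HNRNPAB. With the uninduced shEIF2B4 library of week 1 alone left out, an alternative added after the data were seen, 4 members were called lower: HNRNPA2B1 (-0.88), HNRNPA3 (-0.65), HNRNPD (-0.66) and HNRNPDL (-0.64). In that fit 10% of all genes were called lower and 7.91% higher. With week 1 left out in all lines 3 were called lower and 1 higher, beside 8.17% and 6.33% of genes. HNRNPA0 had a response of 0.53 ± 0.18, above 0 in 4 of 4 weeks, which was 0.13 without the correction for shCTRL.

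In total RNA no member was called after shEIF2B4, beside 1.62% of genes lower and 3.78% higher. HNRNPA2B1 (-0.25 ± 0.15) and HNRNPDL (-0.14 ± 0.12) were lower in 4 of 4 weeks, and the other 5 members had responses between -0.08 and 0.14. In TE none was called, beside 0.0277% of genes lower and 0.0646% higher. HNRNPD (-0.36 ± 0.29) was lower in 4 of 4 weeks, and without the uninduced library of week 1, 3 members were called lower in TE, beside 12.5% of genes called lower and 8.53% higher in that fit.

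The response to shEIF2B1 was lower than that to shEIF2B4 for all 7 members in RPFs, by 0.13 ± 0.16 for HNRNPA0, 0.30 ± 0.20 for HNRNPAB and between 0.52 ± 0.24 and 0.89 ± 0.34 for the other 5, on the log2 scale. None of these differences was called, while over all genes 1 was called lower (0.00897%) and none higher (0%). For HNRNPA2B1 the weekly differences were -1.81, -0.87, -0.16 and -0.70. Without the uninduced shEIF2B4 library of week 1 the difference was -0.50 for HNRNPA2B1, and the median over the members moved from -0.58 to -0.28. In total RNA the differences of HNRNPA2B1 and HNRNPA3 were -0.37 ± 0.15 and -0.41 ± 0.12, in the same direction in 4 of 4 weeks. No member was called in total RNA, beside 0.0419% of genes lower and 0.0586% higher, or in TE, in which 0% of genes were called lower and 0% higher. Unadjusted limma p-values were under 0.05 for 713 of 11145 genes in RPFs, for 1528 of 11947 in total RNA and for 665 of 10836 in TE. Without any difference a share of about 0.05 would pass.

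**Figure D3:**
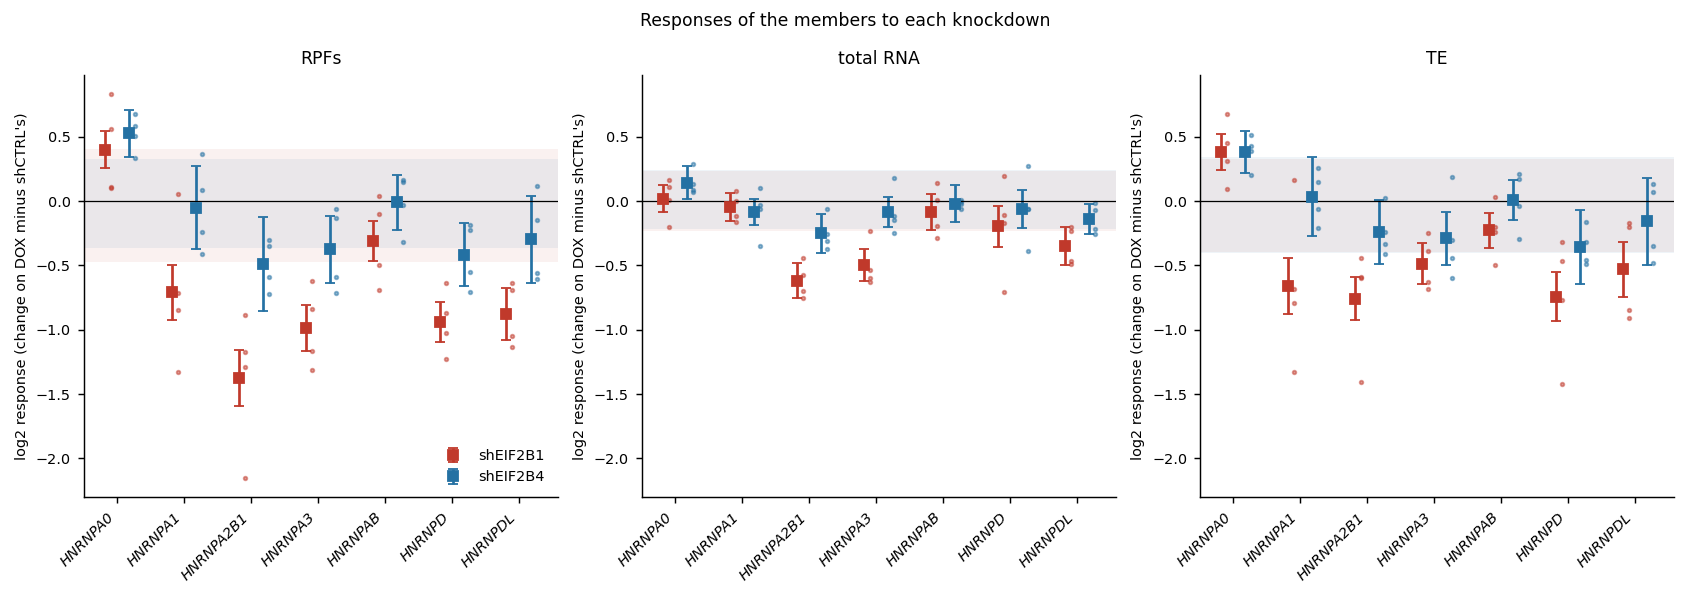
Responses of each member to shEIF2B1 (red) and shEIF2B4 (blue) in RPFs, total RNA and TE, as fitted log2 values (squares) with standard errors (bars) and the 4 weekly values (dots). Shading spans the 10th to the 90th percentile of all genes for each knockdown. In RPFs HNRNPA2B1 lies at -1.38 after shEIF2B1 and HNRNPA0 lies above 0 for both knockdowns.

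All 7 members already differed in RPFs between the shEIF2B1 and shCTRL cultures kept without DOX. RPFs of uninduced shEIF2B1 cells were called higher than those of uninduced shCTRL cells for 6 members and lower for HNRNPA0, in a comparison in which 29% of all genes were called higher and 25.1% lower. For HNRNPA2B1 the difference was 0.81 ± 0.10 (SE), for HNRNPA3 0.66 ± 0.08, for HNRNPDL 0.59 ± 0.08 and for HNRNPD 0.46 ± 0.07, each above 0 in 4 of 4 weeks. HNRNPA0 was lower by 0.27 ± 0.08. RPFs of HNRNPA2B1 in induced cells were 10.80 ± 0.68 (SD, n = 4) with shEIF2B1 and 11.37 ± 0.63 with shCTRL, and the change within shEIF2B1 cells, without correction for shCTRL, was -1.42. In induced cells HNRNPA3 had means of 9.73 with shEIF2B1 and 10.05 with shCTRL, HNRNPD 9.60 and 10.08, and HNRNPDL 8.41 and 8.69. HNRNPA1 had 10.19 and 10.50, HNRNPAB 10.80 and 10.89, and HNRNPA0, the other way, 10.20 and 10.08. The responses thus also hold the differences between the uninduced lines. In total RNA of the same lysates no member was called in either direction, beside 0.804% of genes lower and 0.594% higher. There HNRNPA2B1 and HNRNPA3 were higher by 0.15 ± 0.05 each.

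Between uninduced shEIF2B4 and uninduced shCTRL cells RPFs of HNRNPA0 were called lower, by 0.50 ± 0.12 in 4 of 4 weeks. Both sets of libraries bear on the preference for shEIF2B1 by which HNRNP genes had been singled out, so these values too are a description. The call was lost with each library centred on its median and when week 2, 3 or 4 was left out. In these fits 0.0628%, 0.00897%, 1.39% and 0% of all genes were called lower. All genes had a median of -0.13 in this comparison, in which 12.4% were called lower and 1.55% higher. The other 6 members had differences between -0.08 and 0.25 that were not called. Without the uninduced shEIF2B4 library of week 1, HNRNPA2B1 (0.45), HNRNPA3 (0.33), HNRNPD (0.30) and HNRNPDL (0.58) were called higher, in a fit that called 13.1% of genes higher and 34.5% lower. In total RNA no member was called, beside 1.59% of genes lower and 0.728% higher. HNRNPD was lower by 0.34 ± 0.08 in 4 of 4 weeks and not called. Without week 3, 2 members were called lower there, beside 3.54% of genes, and without week 4, 1 was, beside 0.502%.

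Members also changed with DOX in shCTRL cells, where the drug and induction of the non-targeting shRNA cannot be told apart. In RPFs HNRNPA0 was called lower, by 0.40 ± 0.11, and no member was called higher, beside 4.62% and 5.23% of genes. In total RNA HNRNPD was called lower, by 0.29 ± 0.08, and none higher, beside 2.18% and 2.27%. RPFs of all members were higher after DOX in week 1 and lower in week 2, so that for HNRNPA2B1 the changes ranged from 0.66 to -0.59. Without week 1, 5 members were called lower in shCTRL RPFs, beside 15.1% of genes, and 5 in shCTRL total RNA, beside 10.4%. Without any one of the other weeks none was, beside at most 0.00897% of genes called lower in RPFs and 0.862% in total RNA.

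The RPF response followed base composition over all genes. After shEIF2B1 the median response was -0.38 in the decile of genes with the lowest GC3 and 0.26 in the decile with the highest. With shEIF2B4 the medians were -0.28 and 0.19. By GC3, HNRNPA3, HNRNPDL, HNRNPA2B1 and HNRNPA1 stood above 0.715% to 18.9% of genes and HNRNPA0 above 80.4%. With this trend subtracted, an alternative added after the data were seen, the RPF response to shEIF2B1 was -1.09 for HNRNPA2B1, -0.82 for HNRNPD, -0.53 for HNRNPA3, -0.51 for HNRNPDL, -0.44 for HNRNPA1, -0.40 for HNRNPAB and 0.19 for HNRNPA0. The order of HNRNPA3 and HNRNPD was thereby exchanged and the median over the members was -0.51 in place of -0.88. By purine content, the decile of genes richest in G and A had a median response to shEIF2B1 of -0.31 and the poorest decile 0.23.

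**Figure D4:**
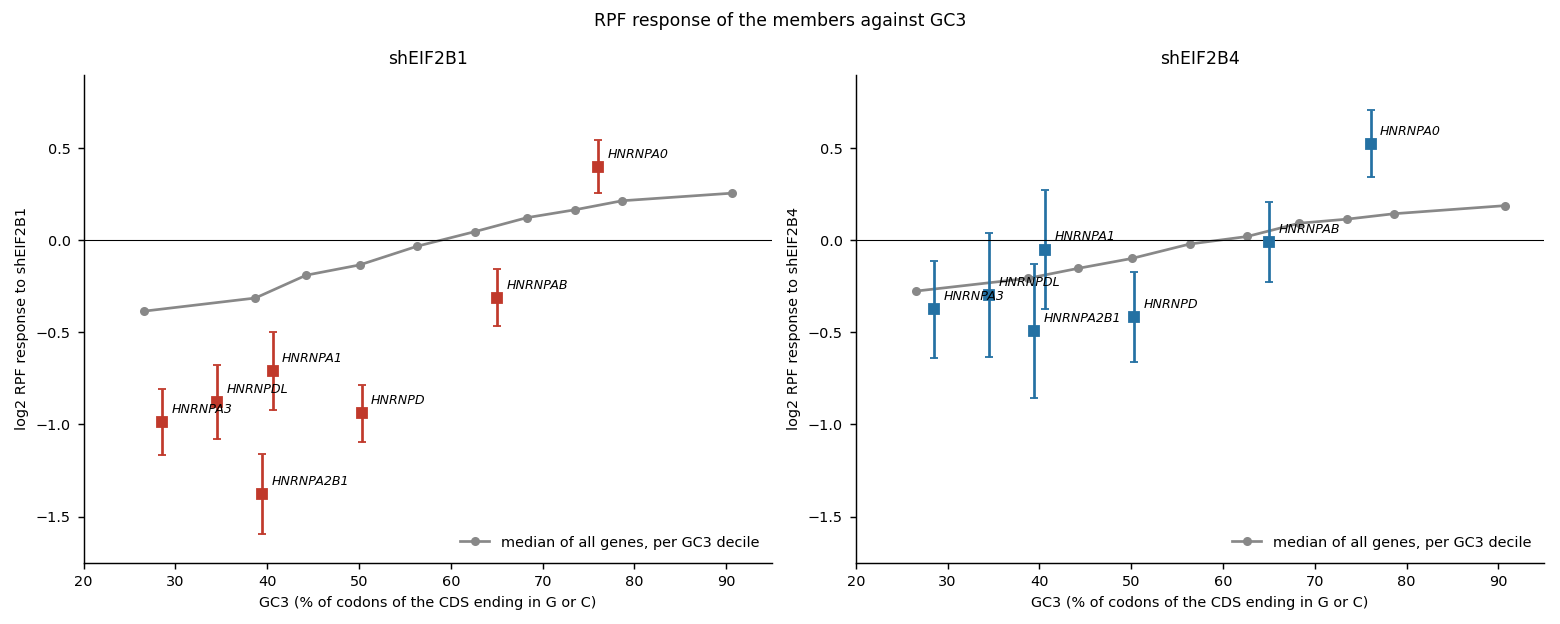
RPF response (vertical axis, log2 with standard error) to shEIF2B1 and shEIF2B4 against GC3 of the CDS (horizontal axis, %), for the 7 members (squares) and as medians of all genes in deciles by GC3 (grey, drawn at the middle of each decile's range). HNRNPA0, with a GC3 of 76.1%, is the member above 0 for both knockdowns, and 6 members lie below the grey line after shEIF2B1.

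RPF libraries differed in how genes of low and high GC3 were covered, and the members went along with this. The gap between the median log2 RPFs of the lowest and the highest decile by GC3, members left out, ranged from -1.27 to 0.80 over the 24 libraries. It was -1.23 in the uninduced shEIF2B4 library of week 1, against 0.29 to 0.64 in the other weeks of that condition. In uninduced shEIF2B1 cells its mean was 0.17 ± 0.71 (SD, n = 4) and in induced ones -0.33 ± 0.65, and it was lower after induction in 4 of 4 weeks. In shCTRL cells it was -0.60 ± 0.59 before and -0.39 ± 0.55 after DOX. With the mean of each week removed, Pearson's r between this gap and the RPFs of a member over 24 libraries was between 0.61 and 0.76 for 6 members and -0.33 for HNRNPA0, which is a description of libraries that share weeks, lines and processing. Whether this property of the libraries has a part in the responses was not tested. In total RNA the gap varied less, from 1.53 to 2.33.

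Apart from HNRNPA0, the members varied together in RPFs. With week means removed, Pearson's r over 24 RPF libraries was between 0.90 and 0.97 for all pairs of the other 6 members (highest for HNRNPA2B1 and HNRNPA3), and between 0.11 and 0.38 for pairs with HNRNPA0. In total RNA pairs were less alike. There r was 0.93 for HNRNPA2B1 and HNRNPA3, 0.90 for HNRNPD and HNRNPDL, and no more than 0.39 for any pair with HNRNPA1. The genes outside the group most like the mean of the members in RPFs were G3BP1, which nucleates stress granules (r = 0.98), the chaperone HSP90AA1 (0.98), ANP32A (0.98), nucleolin, NCL (0.98), and EIF2S1, the gene of eIF2α (0.97). Taken singly, the closest gene was TRA2A for HNRNPA1, HSP90AA1 for HNRNPA2B1, HSPA4 for HNRNPA3, PA2G4 for HNRNPAB, HMGB1 for HNRNPD and LTV1 for HNRNPDL, with r of 0.97 to 0.98. HNRNPA0 was most like RBM42, at 0.86. In total RNA the genes nearest to the mean of the members were MAPRE1 (0.97), HNRNPH1 (0.95), HMGB3 (0.95), RRM2 (0.95) and ANP32A (0.95).

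Of 19 other hnRNPs, 11 were called lower in RPFs after shEIF2B1 and none higher, beside 15.3% and 12% of all genes, with a median of -0.66, and HNRNPU, a nuclear scaffold protein, had the lowest called value (-0.99 ± 0.24). After shEIF2B4 none of the 19 was called, beside 0.87% of genes lower and 1.88% higher, with a median of -0.24. Of the related proteins with RNA recognition motifs, 6 of 8 listed were measured, with a median of -0.11 in RPFs after shEIF2B1. Only HNRNPA1L2 was called there, lower. Of the 30-base windows of its CDS, 60.2% occur in HNRNPA1, so its RPFs are not separate from those of this member. These lists were written with earlier results of these data known, and other hnRNPs belong to the family that the study had singled out.

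Of 8 proteins that import or methylate RNA-binding proteins, 3 were called lower in RPFs after shEIF2B1, again beside 15.3% of genes called lower and 12% called higher for this and the next lists, with the import receptor KPNB1 at -0.52 ± 0.17, and the median was -0.10. Of 9 other proteins that bind AU-rich elements, 4 were called lower and 2 higher. NCL, which fell most, had -1.37 ± 0.24, and ZFP36L1, a decay factor of AU-rich mRNAs that rose most, had 0.79 ± 0.17. ZFP36L1 also rose after shEIF2B4, by 0.83 ± 0.23, as 1 of 2 genes of that list called there, beside 1.88% of all genes called higher. Of 12 genes of stress granule assembly, TIA1 and TIAL1 being also on the list before, 8 were called lower after shEIF2B1. FXR1 fell most (-1.13 ± 0.19), and the median was -0.50. After shEIF2B4 none of the 12 was called, beside 0.87% of genes lower and 1.88% higher.

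Promoters were compared because HNRNPA2B1 and HNRNPA3, and HNRNPD and HNRNPDL, moved together in total RNA. RefSeq (GRCh38.p14) gave windows around the transcription start for 6 members, all but HNRNPA1, and 7 windows in all since HNRNPDL has 2 overlapping ones. The E-box CACGTG, searched as a palindrome, occurs in 4 of the 7, those of HNRNPA3, HNRNPD and both of HNRNPDL, against 7.26% of 35116 promoters. Both HNRNPDL windows may hold the same site. The window of HNRNPA2B1 does not hold it, although HNRNPA2B1 moved with HNRNPA3 in total RNA. On either strand CCAAT occurs in 5 of 7 (34.6% of all), GGGCGG in 6 of 7 (44.95%) and TATAAA in 2 of 7 (11.5%). Stretches of 100 bases that hold the E-box in 2 members are shown with it in capitals, at chr2:177212704-177212803 on the plus strand for HNRNPA3 and chr4:82373982-82374081 on the minus strand for HNRNPD.
HNRNPA3: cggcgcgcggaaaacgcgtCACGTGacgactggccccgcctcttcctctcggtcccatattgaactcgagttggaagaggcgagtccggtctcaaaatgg
HNRNPD: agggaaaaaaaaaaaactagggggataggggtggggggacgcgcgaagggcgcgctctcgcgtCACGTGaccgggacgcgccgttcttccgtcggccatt
These matches describe letters in the windows, and no binding was measured here.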

How the data were processed

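RPFs and total cytoplasmic RNA were sequenced from 24 SW480 lysates (48 libraries, 4 replicates per group). The deposited values are log2 values that the authors made with DESeq2's regularized log transformation, so the counts and the depth per library are unknown. The authors aligned reads with bowtie2 to GENCODE v38 protein-coding transcripts, counted RPFs on the CDS, used RSEM for the deduplicated total RNA reads, and represented each gene by its most expressed transcript. Joined runs of replicate 3 were used as deposited, and 0 columns of samples were left unused.

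Values were fitted with limma 3.58.1 in R 4.3.3 (lmFit, eBayes with a mean-variance trend) with the replicate as a block, over 16 libraries for a response and 24 for the difference between knockdowns. The study states that the experiment was repeated in separate weeks, while the labels give only a replicate number. Libraries with the same number were taken to share a week. In RPFs, 52 of 60 pairs of groups correlated by over 0.1 in their deviations at the same number (mean r 0.56, against -0.19 at other numbers), and in total RNA 37 of 60 (0.18 against -0.06). The fit was tested on simulated data. A CDS was found in GENCODE v29 for 97.3% of genes with RPFs and for 97.0% of those with total RNA. Members, lists (other hnRNPs, related proteins with RNA recognition motifs, nuclear import and arginine methylation, AU-rich element binding, stress granule assembly) and tests were chosen with earlier results of these data known. Named genes were the members, the knocked-down genes, the called gene of each list with the largest rise and fall, and the genes most like the members by Pearson's r. Alternatives left out the block, the trend, low genes, the shCTRL correction or 1 replicate, centred the libraries, used a stricter threshold or fitted all lines together. Some results are not reported here.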

Additional observations from a re-analysis of the deposited data

Results flagged for a closer look

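In 84 groups of 4 libraries the distance of the most extreme library from the nearest other one was compared with Dixon's critical value, which chance passes in about 1 of 20 groups, and 5 groups passed. RPFs of HNRNPA1 in uninduced shEIF2B4 cells were 9.61 in week 1, against 11.07 to 11.23 in the other weeks. RPFs of HNRNPA0 in induced shCTRL cells were 10.59 in week 1, against 9.83 to 9.95. RPFs of HNRNPA3 in induced shCTRL cells were 10.71 in week 4, against 9.81 to 9.85. Total RNA of HNRNPD in induced shCTRL cells was 8.43 in week 3, against 7.87 to 7.92, and that of HNRNPDL in the same library was 9.38, against 8.995 to 9.025.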

How the results depend on the processing

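None of the called member values changed sign under any alternative. Of 1019 member values 988 moved by less than 1 SD of that member's 4 weekly values. Most of this was fixed in advance by the balanced design. Leaving out the block, the trend or low genes, or fitting all lines together, does not change a fitted value. Leaving out 1 replicate cannot move it by 1 SD. These counts are thus no measure of robustness. Without the replicate block 0 members were called in any response (RPFs and TE after shEIF2B1, total RNA after shEIF2B1), in the shCTRL changes or between uninduced lines. Over all genes, calls in RPFs after shEIF2B1 went from 3038 to 50 without the block, in RPFs after shEIF2B4 from 307 to 36 and in TE after shEIF2B1 from 769 to 0. With all 24 libraries in 1 fit these counts were 1895, 490 and 44, 0 members were called higher in RPFs or lower in TE after shEIF2B1, and 1 was called higher in RPFs after shEIF2B4, beside 2.68% of genes. At an adjusted p under 0.05, 2 members stayed called in TE after shEIF2B1, beside 1.23% of genes lower and 0.997% higher. The single calls in RPFs (HNRNPA0 after shEIF2B1, in shCTRL and in uninduced shEIF2B4) and in shCTRL total RNA went to 0. Beside them 7.69% of genes were called higher in the first of these comparisons, and 1.15%, 0.61% and 0.134% lower in the others. Centring the libraries left 2 calls in TE after shEIF2B1, beside 2.98% of genes lower and 4.01% higher. It left 0 in uninduced shEIF2B4 RPFs (0.0628% of genes lower) and 0 in shCTRL total RNA (1.55% lower). In shCTRL total RNA, leaving out the mean-variance trend also gave 0 (1.5% lower). Without the shCTRL correction, members called lower were 3 in RPFs after shEIF2B4, 5 in total RNA after shEIF2B1 (median -0.48) and 4 in total RNA after shEIF2B4 (median -0.31), in fits that called 12%, 16.8% and 16.3% of all genes lower, and 0 were called higher in RPFs after shEIF2B1.

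With 1 replicate left out, members called higher in RPFs after shEIF2B1 ranged from 0 to 1, those called lower in total RNA from 0 to 2 (median -0.33 to -0.16) and those called lower in TE from 0 to 5. The shares of all genes ranged from 5.7% to 11.1% higher in RPFs, from 0.117% to 1.97% lower in total RNA and from 0% to 6.99% lower in TE. After shEIF2B4 the ranges were 0 to 4 lower and 0 to 1 higher in RPFs and 0 to 3 lower in TE (median -0.50 to -0.050), the upper ends of the lower counts coming from leaving out the uninduced shEIF2B4 library of week 1, which also raised the calls over all genes in RPFs to 1998 and in TE from 10 to 2282. The shares of all genes here ranged from 0.0179% to 10% lower and 0.368% to 7.91% higher in RPFs and from 0% to 12.5% lower in TE. The shCTRL changes ranged from 0 to 5 calls each, beside 0% to 15.1% of genes called lower in RPFs and 0% to 10.4% in total RNA. Without replicate 1 the calls over all genes rose from 1098 to 3526 in shCTRL RPFs and from 531 to 2452 in shCTRL total RNA, and without the uninduced shEIF2B4 library of week 1 from 1554 to 5305 in RPFs of uninduced shEIF2B4 against shCTRL cells. In uninduced shEIF2B4 cells, 0 to 1 were called lower and 0 to 4 higher in RPFs, and 0 to 2 lower in total RNA. Over all genes the shares were 0% to 34.5% lower and 0% to 13.1% higher in RPFs, and 0.0167% to 3.54% lower in total RNA. With the GC3 trend removed, chosen like the omission of that library after the data were seen, the median of the members was -0.51 in RPFs after shEIF2B1 and 0.11 in TE after shEIF2B4, in place of -0.16. Without length correction the span of levels in total RNA was 3.55. The cause of these shifts was not tested, and the unknown read depth limits all values.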
